A study of Mus musculus with 10 samples.

Results

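The 29 genes described here encode enzymes that build cholesterol from acetyl-CoA, the proteins that control the transcription factor Srebp2, and a few proteins of sterol transport and LDL receptor turnover. They were taken as a named list of 29 genes out of 16647 listed genes, and all 29 passed the count filter. Liver RNA was sequenced from 5 control mice and 5 mice given MI-883, a ligand of the nuclear receptors CAR and PXR, in order to see which liver genes follow the treatment. All 10 mice were males of the humanized PXR-CAR-CYP3A4/3A7 line (from Taconic), so that controls and treated mice carried the same alleles, and were aged 10 to 15 weeks when the diet began. All received a high-fat diet for 8 weeks before and during the 4 weeks of treatment. MI-883 was given by oral gavage at 5 mg/kg on 3 days per week, and control mice received the vehicle of DMSO, PEG300 and corn oil in the same way. The model carries the human receptors, whereas the sterol genes themselves are the mouse genes.

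Cholesterol is made in the endoplasmic reticulum in a chain of reactions, from acetyl-CoA through mevalonate and farnesyl diphosphate to squalene, then lanosterol, then cholesterol. Srebp2 is the transcription factor that switches these enzymes on together. When membranes hold little sterol, Scap carries Srebp2 to the Golgi, where a pair of proteases frees its active part. When sterol is plentiful, Insig proteins hold Scap and Srebp2 back. In the liver this feedback keeps cholesterol synthesis matched to the cholesterol that arrives with lipoproteins.

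After MI-883 treatment, none of the 29 genes had an adjusted P under 0.05 in the quasi-likelihood test of edgeR, in either direction. Over all 13219 tested genes, 1.03% were called, 0.764% higher and 0.265% lower. The Wald test of DESeq2 called 1 member higher, *Sqle*, and 0 lower, where it called 3.5% of all tested genes, 2.2% higher and 1.3% lower. At an unadjusted P under 0.05, 8 of the 29 genes were higher and 0 lower in either test. In edgeR this count of higher genes was 5 without treated replicate 5, also 5 without control replicate 3, and 6 to 10 without any other single liver. The count of lower genes was 1 without control replicate 1, control replicate 2 or treated replicate 4, and 0 without any other. Of all genes, 15.6% passed this limit in edgeR (8.09% higher and 7.49% lower) and 15.8% in DESeq2 (8.2% higher and 7.6% lower). The 8 genes, the same in both tests, were *Sqle*, *Idi1*, *Nsdhl*, *Dhcr7*, *Cyp51*, *Hsd17b7*, *Lss* and *Insig2*.

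The estimated differences pointed largely upward. Log2 fold changes were above 0 in 27 of the 29 genes and below 0 in *Ebp* and *Scap*, where 51% of all tested genes lay above 0 and 49% below. The median was 0.18 over the 29 genes and 0.0045 over all tested genes. In the steps used here, squalene to lanosterol includes *Fdft1*, which makes squalene. By pathway step, the median log2 fold change was 0.24 for 9 genes of the mevalonate steps and 0.35 for 3 genes from squalene to lanosterol. The median was 0.32 for 8 genes from lanosterol to cholesterol. It was 0.092 for 6 genes of Srebp control and 0.15 for 3 genes of sterol transport and LDL receptor control. Without treated replicate 5 these 5 medians were 0.098, 0.22, 0.12, 0.055 and 0.11 in the same order. Other single livers also moved a median by over 1.5 times, to 0.15 for the mevalonate steps without control replicate 3, to 0.052 for Srebp control without control replicate 4 and to 0.075 for transport and LDL receptor control without control replicate 1. In whole liver, fewer cells of a type and less RNA per cell cannot be told apart. In no member did the 5 treated and 5 control livers lie apart. The groups did not overlap in 3.98% of all tested genes (2.05% upward and 1.93% downward).

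**Figure D1:**
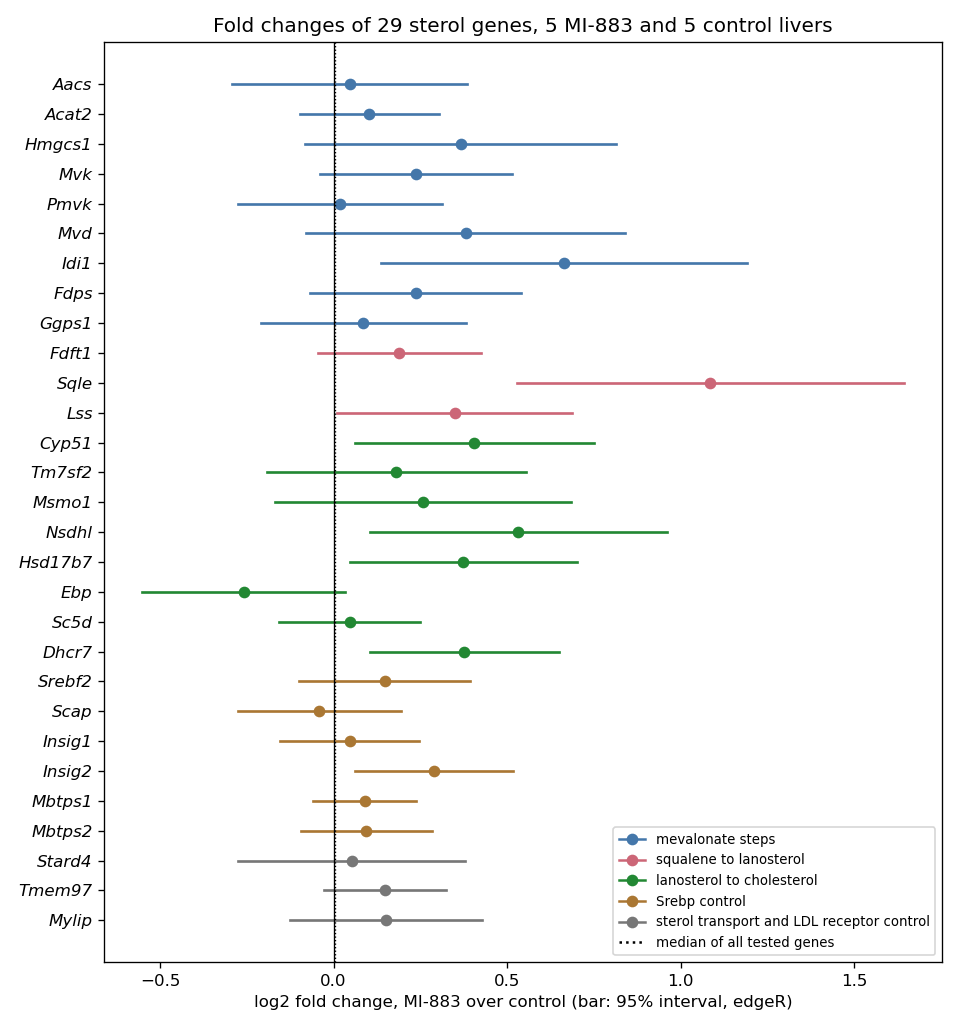
Log2 fold change of each of the 29 genes, MI-883 over control (horizontal axis), with its 95% interval from edgeR, coloured by pathway step. *Sqle* lies farthest to the right at 1.09, and 27 points lie to the right of 0, while most intervals cross it.

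Treated replicate 5 had the highest level of all 10 livers in 22 of the 29 genes, and in 17 of the 20 enzymes. Of all tested genes, 12.9% were highest in that liver. This liver was singled out after its values were seen. Without it the median log2 fold change of the 29 genes was 0.098, with 24 genes above 0 and 0 genes called, and the largest value was 0.79 for *Sqle*. Omitting it moved the log2 fold change of 22 of the 29 genes by over 1.5 times, in 3 of them to the other sign.

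RefSeq promoters (GRCm38.p6, from 250 bases before to 50 after a transcript start) were found for 25 of the 29 genes and not for *Fdft1*, *Fdps*, *Sqle* and *Stard4*. They were searched on both strands for the core of the sterol regulatory element that Srebp2 recognizes (TCACNCCAC), for the CCAAT box (CCAAT) of its partner NF-Y and for the GC box (GGGCGG) of its partner Sp1. The 3 motifs do not share a full match with each other by their letters. The sterol core was present in 1 of the 25 genes, *Hmgcs1*, or 4%, against 1.44% of all genes with a promoter and 1.49% of the tested genes. A CCAAT box was present in 20 of the 25 genes (80%), among them 15 of 17 enzymes, against 41.1% of all genes and 42.8% of the tested genes. A GC box was present in 21 of the 25 genes (84%), against 38.2% of all genes and 66.1% of the tested genes. A gene with several listed starts was counted when any of them held the motif. A match is a string of letters, and binding was not measured. Only exact strings were searched, so the lack of a match does not show that an element is absent.

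The 250 bases before the start are shown for *Hmgcs1*, the gene with the sterol core, and for *Idi1*, *Nsdhl* and *Cyp51*, the enzymes of lowest P that have a single listed start. The capitals mark the sterol core, CCAAT boxes and GC boxes on either strand, and the last base shown lies next to the start. The *Hmgcs1* stretch is chr13:119690101-119690350 on the plus strand, and its sterol core begins 137 bases before the start. The *Idi1* stretch is chr13:8885356-8885605 and that of *Nsdhl* is chrX:72918271-72918520, both on the plus strand. The *Cyp51* stretch is chr5:4104698-4104947 on the minus strand. Counted in bases from the start, CCAAT boxes begin at -237, -176 and -45 in *Hmgcs1* and at -45 and -14 in *Idi1*. They begin at -109 and -20 in *Nsdhl* and at -29 in *Cyp51*. The whole searched promoter holds 4 CCAAT boxes in *Hmgcs1* and 4 in *Nsdhl*, and those not listed lie outside the stretch shown.
Hmgcs1: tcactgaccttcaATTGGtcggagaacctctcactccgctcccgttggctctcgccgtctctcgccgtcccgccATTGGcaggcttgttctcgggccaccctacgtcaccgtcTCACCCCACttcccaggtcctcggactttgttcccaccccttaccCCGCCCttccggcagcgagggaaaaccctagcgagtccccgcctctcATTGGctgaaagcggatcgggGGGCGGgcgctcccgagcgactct
Idi1: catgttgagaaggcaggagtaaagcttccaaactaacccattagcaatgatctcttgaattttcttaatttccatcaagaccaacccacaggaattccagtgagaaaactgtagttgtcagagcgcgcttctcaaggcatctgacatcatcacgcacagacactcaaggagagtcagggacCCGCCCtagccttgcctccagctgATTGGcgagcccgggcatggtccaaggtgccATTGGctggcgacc
Nsdhl: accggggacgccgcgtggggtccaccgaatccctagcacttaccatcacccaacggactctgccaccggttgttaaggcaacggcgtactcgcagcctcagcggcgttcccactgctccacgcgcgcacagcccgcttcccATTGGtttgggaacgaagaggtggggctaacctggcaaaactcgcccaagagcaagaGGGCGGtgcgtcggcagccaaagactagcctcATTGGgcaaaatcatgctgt
Cyp51: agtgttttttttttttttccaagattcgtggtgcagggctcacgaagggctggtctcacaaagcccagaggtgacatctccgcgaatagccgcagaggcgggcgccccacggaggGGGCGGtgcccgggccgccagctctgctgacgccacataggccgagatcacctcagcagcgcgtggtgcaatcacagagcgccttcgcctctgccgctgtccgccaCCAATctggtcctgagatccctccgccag

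Expression is given as CPM, the counts of a gene per 1000000 counts after TMM scaling of the library, with the S.D. over 5 livers. Levels are compared between genes only as RPKM, the CPM per kilobase of exon. Gene positions refer to GRCm38. P values written as exact are two-sided and come from permuting the livers between groups for the difference in mean log2(CPM + 1), whose smallest possible value with 5 livers against 5 is 0.00794.

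Among the mevalonate enzymes, which lead from acetyl-CoA to farnesyl diphosphate, all 9 had a log2 fold change above 0 and 0 were called. In RPKM the levels in control livers ran from 1.33 for *Ggps1* to 66.5 for *Fdps*. *Idi1* (Entrez gene 319554, chromosome 13, 8885606 to 8892396), whose product interconverts the pair of isoprenoid building blocks, was measured at 21.5, 18.2, 14.3, 18.3 and 24.3 CPM in control livers and at 25.2, 20.8, 24.9, 25.4 and 56.7 CPM in treated livers. Of the treated livers 4 lay above every control liver, replicate 2 lay within the control range, and replicate 5 stood far above the rest. The means were 19.3 ± 3.78 and 30.6 ± 14.7 CPM, which gave a difference of 0.66 ± 0.244 (s.e.) on the log2 scale (edgeR adjusted P = 0.217). Without treated replicate 5 it was 0.32. Part of the *Idi1* count is uncertain, since 15.8% of its 100-base stretches also occur in transcripts of other genes.

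*Fdps* (Entrez gene 110196, chromosome 3, 89093588 to 89101967) makes farnesyl diphosphate, the branch point to sterols and other isoprenoids. It was measured at 321, 271, 208, 266 and 333 CPM in control livers and at 390.2, 295, 295, 271 and 396 CPM in treated livers. Treated replicates 1 and 5 lay above all controls, and the other 3 lay inside the control range. Its log2 fold change was 0.24 (95% interval -0.07 to 0.54, adjusted P = 0.439 from edgeR), and 0.15 without control replicate 3. The overlapping gene *Gm43738* on the same strand covers 26.7% of its exon bases, which leaves its count uncertain.

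*Hmgcs1* (Entrez gene 208715, chromosome 13, 119690351 to 119708260), the cytosolic synthase that makes HMG-CoA, averaged 217 ± 50.2 CPM in control livers and 279.7 ± 95.4 CPM after treatment. Its log2 fold change was 0.37 (95% interval -0.08 to 0.81, adjusted P = 0.416 from edgeR), and 0.15 without treated replicate 5. Control replicate 1, at 302 CPM, lay above every treated liver but replicate 5, at 432 CPM. *Mvk*, *Pmvk* and *Mvd*, which phosphorylate and decarboxylate mevalonate, had log2 fold changes of 0.24, 0.02 and 0.38, and of 0.098, -0.02 and 0.23 without that liver. *Mvd* was at 23.3 and 25.0 CPM in treated replicates 1 and 5 and at 11.8 to 15.7 CPM in the other treated livers, where control livers ranged from 10.3 to 17.3 CPM. *Acat2* and *Aacs*, which supply acetoacetyl-CoA, and *Ggps1*, which leads away from sterols to geranylgeranyl diphosphate, had log2 fold changes of 0.10, 0.05 and 0.09 (adjusted P of 0.621, 0.912 and 0.792 from edgeR). Of the stretches of *Acat2*, 28.9% also occur in its neighbour *Acat3*, which leaves its count uncertain.

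The 3 enzymes listed under squalene to lanosterol, with *Fdft1* that makes squalene, included the gene with the largest difference of the list. *Sqle* (Entrez gene 20775, chromosome 15, 59315092 to 59331193) encodes squalene epoxidase, which adds the oxygen needed for ring closure and is a rate-limiting step of the late pathway. It was measured at 28.8, 20.4, 16.8, 22.3 and 32.5 CPM in control livers. In treated livers it was at 53.7, 30.2, 45.5, 37.9 and 88.6 CPM. The groups overlapped only through treated replicate 2, which lay below control replicate 5, and all 5 treated livers lay above the control median.

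The means of *Sqle* were 24.2 ± 6.38 and 51.2 ± 22.7 CPM, 2.12-fold higher with MI-883, or 1.09 ± 0.258 (s.e.) on the log2 scale with a 95% interval of 0.53 to 1.64. Adjusted P values were 0.0703 (edgeR) and 0.0236 (DESeq2), and P was 0.0159 in the exact permutation test. Fits that omitted a single liver gave log2 values between 0.79, without treated replicate 5, and 1.23, without treated replicate 2. In the latter fit the adjusted P from edgeR was 0.0495, the lowest of the 10. No 100-base stretch of *Sqle* occurs in another gene.

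*Fdft1*, squalene synthase, commits farnesyl diphosphate to sterols and had the highest level of the 3 enzymes, at 28.9 RPKM in control livers. It was measured at 125, 110.3, 104, 125 and 146 CPM in control and at 153, 124, 123, 131 and 166 CPM in treated livers. Again treated replicates 1 and 5 were the highest of all 10, and the other treated livers fell among the controls. For the group means this was a log2 fold change of 0.19 (95% interval -0.04 to 0.42, adjusted P = 0.419 from edgeR), or 0.12 without treated replicate 5. Exons of *Ctsb* on the opposite strand cover 18.3% of its exon bases.

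*Lss*, which closes squalene epoxide into lanosterol, was measured at 32.7, 21.1, 29.5, 26.2 and 36.0 CPM in control and at 37.2, 30.6, 38.6, 29.2 and 49.3 CPM in treated livers. Treated replicates 1, 3 and 5 lay above all controls. On the log2 scale the groups differed by 0.35 ± 0.157 (s.e., edgeR adjusted P = 0.308), and 0.22 without treated replicate 5.

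**Figure D2:**
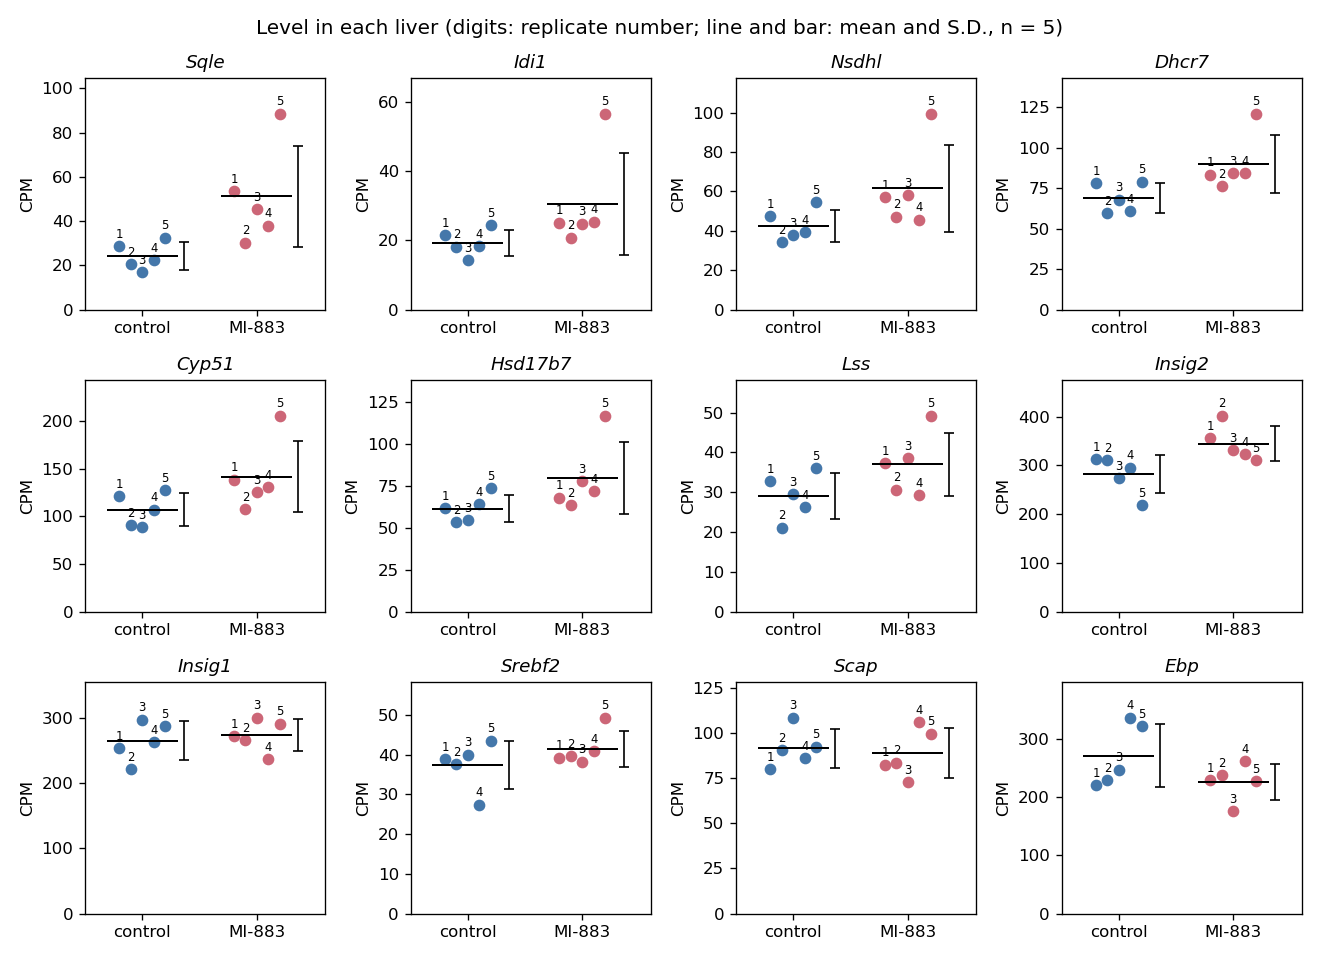
Level in each of the 10 livers (CPM, linear axis from 0) for 12 of the genes, with replicate numbers beside the points and the mean and S.D. (n = 5) as line and bar. Treated replicate 5 is the highest point for *Sqle*, *Idi1*, *Nsdhl*, *Dhcr7*, *Cyp51*, *Hsd17b7*, *Lss* and *Srebf2*, but not for *Insig1*, *Insig2*, *Scap* or *Ebp*.

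Of the 8 enzymes from lanosterol to cholesterol, 7 had a log2 fold change above 0, 4 of them at an unadjusted P under 0.05, and 0 were called. *Cyp51* (Entrez gene 13121, chromosome 5, 4080674 to 4104697), the cytochrome P450 that demethylates lanosterol, was measured at 121, 91.0, 88.6, 107 and 127 CPM in control and at 139, 108, 126, 131 and 206 CPM in treated livers. On the log2 scale the groups differed by 0.41 ± 0.159 (s.e., edgeR adjusted P = 0.246), and by 0.23 without treated replicate 5. Treated replicates 1, 4 and 5 lay above all controls.

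*Nsdhl* and *Hsd17b7* act in turn to remove the methyl groups of the sterol ring after *Msmo1* has oxidized them. *Nsdhl* (Entrez gene 18194, chromosome X, 72918521 to 72958528) was measured at 47.4, 34.3, 37.6, 39.1 and 54.4 CPM in control and at 57.1, 47.2, 58.1, 45.6 and 99.5 CPM in treated livers, which gave a difference of 0.53 ± 0.198 (s.e.) on the log2 scale (edgeR adjusted P = 0.222). *Hsd17b7* was measured at 61.8, 53.5, 54.4, 64.2 and 73.5 CPM in control and at 68.0, 63.6, 77.7, 71.8 and 117 CPM in treated livers, which gave a difference of 0.37 ± 0.152 (s.e.) on the log2 scale (edgeR adjusted P = 0.262). In both genes treated replicate 5 stood far above the other livers. All 5 treated livers lay above the control median, and replicate 3 also lay above every control liver, as did replicate 1 for *Nsdhl*. Without replicate 5 the log2 fold changes were 0.29 and 0.19. For *Msmo1*, with treated replicate 5 at 247 CPM against 102 to 174 CPM in control livers, the log2 fold change was 0.26 with all livers and 0.05 without that replicate.

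*Dhcr7* (Entrez gene 13360, chromosome 7, 143823167 to 143848410) encodes the reductase of the last step that leads from dehydrocholesterol to cholesterol. It was measured at 78.2, 59.7, 67.9, 60.8 and 79.0 CPM in control and at 83.2, 76.2, 84.0, 84.2 and 121 CPM in treated livers. Of the treated livers 4 lay above every control liver, replicate 2 being the exception. This was a difference of 0.38 ± 0.126 (s.e.) on the log2 scale, and of 0.25 without treated replicate 5. Adjusted P values were 0.179 (edgeR) and 0.0949 (DESeq2), and P was 0.0238 in the exact permutation test.

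*Ebp* and *Sc5d*, the isomerase and the desaturase that shift and add double bonds in the sterol ring, were the most abundant enzymes of the list, at 118 and 100.3 RPKM in control livers. *Ebp* was measured at 220.5, 230.1, 248, 337 and 322 CPM in control and at 230.0, 238, 177, 262 and 228 CPM in treated livers, with control replicates 4 and 5 above every treated liver. Its log2 fold change was -0.26 (95% interval -0.55 to 0.03, adjusted P = 0.376 from edgeR), and it was negative in every fit that left out a liver. *Ebp* was thus the enzyme that lay on the other side of 0, without passing the test after adjustment. Without control replicate 1, control replicate 2 or treated replicate 4 its log2 values were -0.33, -0.31 and -0.32. In these fits its unadjusted P was under 0.05 in edgeR. For *Sc5d* the log2 fold change was 0.05 (95% interval -0.16 to 0.25) and for *Tm7sf2*, a sterol reductase, it was 0.18 (95% interval -0.19 to 0.56). Without treated replicate 5 these values were 0.0013 and 0.047. Exons of *Vps51* on the same strand cover 12.1% of the exon bases of *Tm7sf2*, which leaves its count uncertain.

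**Figure D3:**
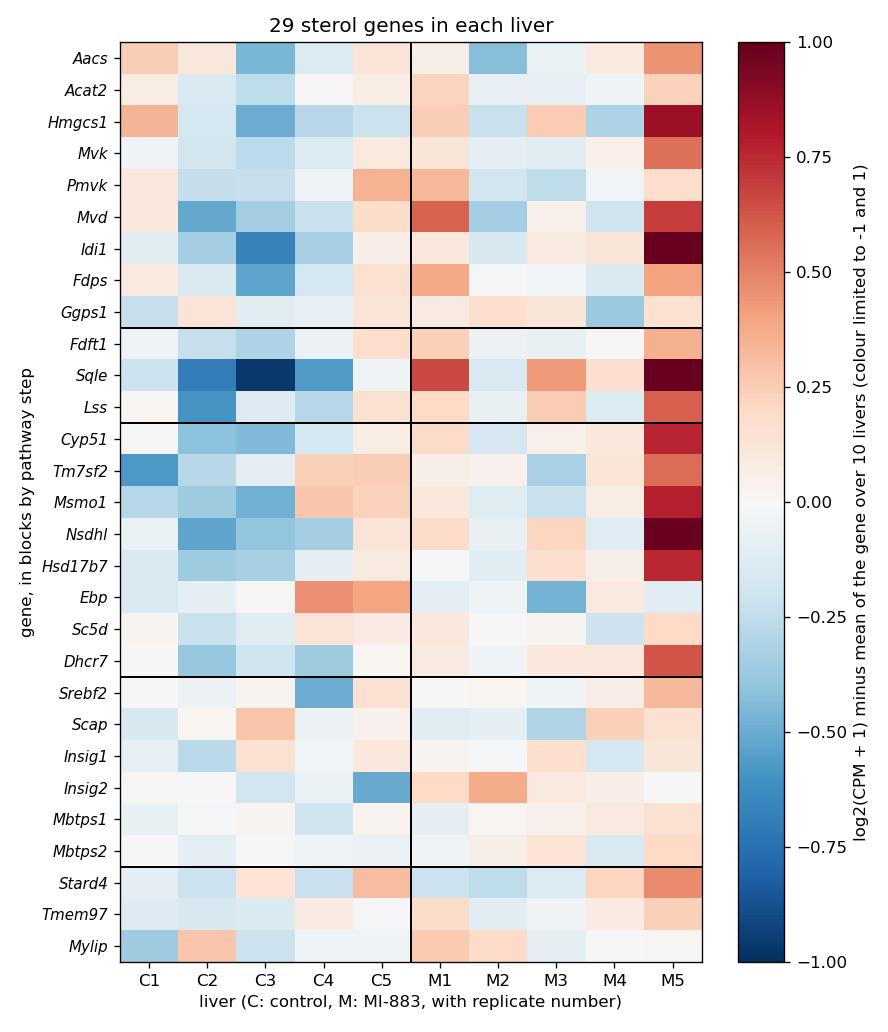
Deviation of log2(CPM + 1) from the mean of each gene over 10 livers, with the 29 genes as rows in blocks by pathway step and the livers as columns (C, control; M, MI-883), and colours limited to deviations of -1 to 1. Most enzymes are high (red) in treated replicate 5 and low (blue) in control replicates 2 and 3, while the rows of Srebp control show weaker colours.

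The genes of Srebp control differed less between livers and groups. The S.D. of log2(CPM + 1) within groups had a median of 0.166 over these 6 genes and of 0.283 over the 20 enzymes, against 0.137 over 8511 tested genes in the same range of mean CPM. *Srebf2* (Entrez gene 20788, chromosome 15, 82147269 to 82205379), which encodes Srebp2, was measured at 38.9, 37.6, 40.0, 27.5 and 43.6 CPM in control and at 39.3, 39.6, 38.2, 40.9 and 49.4 CPM in treated livers. Apart from a low control replicate 4 and a high treated replicate 5, the livers were close to each other. Its log2 fold change was 0.15 (95% interval -0.10 to 0.39, adjusted P = 0.562 from edgeR), with 0.077 without treated replicate 5 and 0.053 without control replicate 4.

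*Insig1* (Entrez gene 231070, chromosome 5, 28071412 to 28078662), which is itself a target of Srebp2 and retains Scap when sterol is plentiful, was measured at 253, 222, 297, 263 and 288 CPM in control livers. In treated livers it was at 272, 266, 300.5, 237 and 291 CPM, and only replicate 3 lay, slightly, above the control range. The log2 fold change was 0.05 (95% interval -0.15 to 0.25, adjusted P = 0.840 from edgeR), so that a change of *Insig1* mRNA beyond 1.19-fold in either direction lay outside the interval.

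*Insig2* (Entrez gene 72999, chromosome 1, 121304353 to 121332662), the second Insig, which in liver is also known to respond to insulin, followed another order of livers. It was measured at 312, 310.4, 273, 295 and 219 CPM in control and at 356, 402, 332, 322 and 311 CPM in treated livers. Of the treated livers 4 lay above every control liver, and the exception was replicate 5, which was the highest liver for most enzymes. The means were 282 ± 38.6 and 345 ± 36.2 CPM, which differ by 0.29 ± 0.106 (s.e.) on the log2 scale. Adjusted P values were 0.216 (edgeR) and 0.124 (DESeq2), and P was 0.0159 in the exact permutation test. Without treated replicate 5, the lowest treated liver for this gene, the log2 fold change was 0.32 and the groups no longer overlapped. In that setting 2.38% of all tested genes did not overlap upward.

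*Scap*, the escort of Srebp2, was measured at 80.0, 90.5, 108, 85.9 and 92.5 CPM in control and at 82.5, 83.5, 72.7, 106 and 99.7 CPM in treated livers, a log2 fold change of -0.04 (95% interval -0.28 to 0.19). The Golgi proteases that release Srebp2 had narrow intervals around 0. *Mbtps1* was measured at 56.9, 59.6, 61.3, 52.2 and 61.5 CPM in control and at 56.2, 60.8, 62.3, 63.8 and 66.8 CPM in treated livers (log2 fold change 0.09, 95% interval -0.06 to 0.24). *Mbtps2* was measured at 10.7, 9.84, 10.6, 10.3 and 10.2 CPM in control and at 10.4, 11.1, 11.8, 9.44 and 12.3 CPM in treated livers (log2 fold change 0.09, 95% interval -0.09 to 0.28). The transcripts of *Mbtps2* share 27.0% of their 100-base stretches with *Yy2*, which lies in the same gene.

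Among the remaining members, *Mylip* encodes the ubiquitin ligase that marks the LDL receptor for degradation. It was at 8.07 to 13.1 CPM in control and 9.92 to 12.9 CPM in treated livers, a log2 fold change of 0.15 (95% interval -0.13 to 0.43, adjusted P = 0.604 from edgeR). *Tmem97*, a sterol-responsive membrane protein, had a log2 fold change of 0.15 (95% interval -0.03 to 0.32, adjusted P = 0.400 from edgeR), and all 5 treated livers lay above the control median. *Stard4*, which moves sterol between membranes, had a log2 fold change of 0.05 (95% interval -0.27 to 0.38, adjusted P = 0.900 from edgeR).

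The livers were also described by a score, the mean over genes of log2(CPM + 1) minus the mean of the gene over the 10 livers. Over the 20 enzymes the score was -0.042, -0.28, -0.34, -0.11 and 0.13 in control replicates 1 to 5. In the treated livers it was 0.19, -0.11, 0.0065, -0.027 and 0.58. Control replicate 5 thus lay above 3 of the treated livers, and treated replicate 5 lay above all others. The score over all tested genes stayed between -0.035 and 0.023.

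In treated replicate 5 the score was 0.53 for the mevalonate steps, 0.77 from squalene to lanosterol and 0.57 from lanosterol to cholesterol, but 0.16 for Srebp control. Of the 20 enzymes, 19 lay above their own median over the 10 livers in treated replicate 5, 19 in control replicate 5 and 17 in treated replicate 1. The count was 1 in control replicate 3, 3 in control replicate 2 and 3 in treated replicate 2. Control replicate 3 had the lowest level of all livers in 10 of the 20 enzymes and control replicate 2 in 6, where 9.24% and 5.03% of all tested genes were lowest in these livers.

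**Figure D4:**
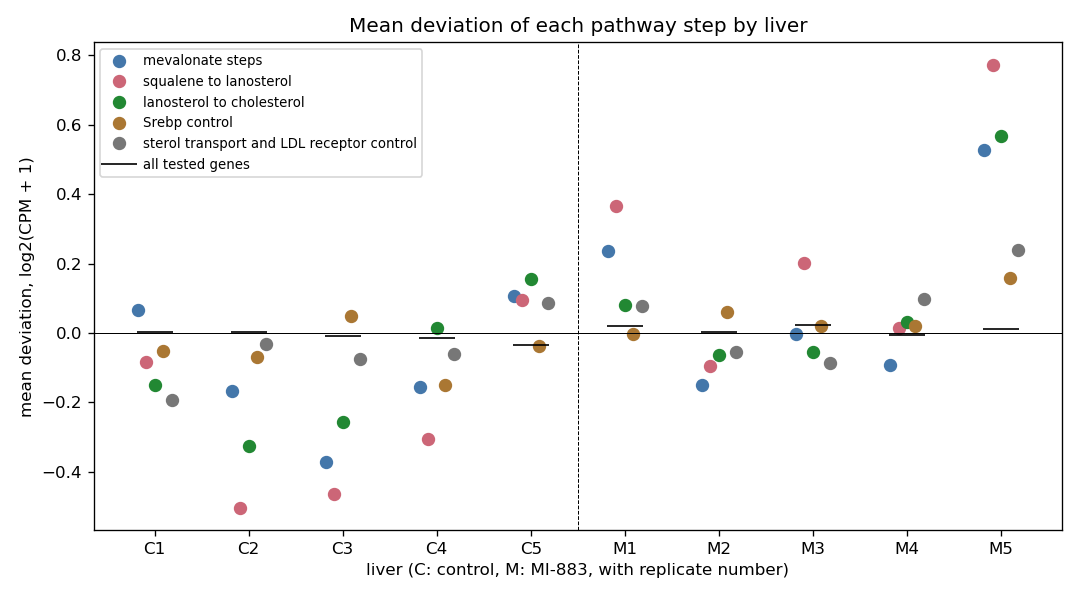
Mean deviation of log2(CPM + 1) for each pathway step in each liver (C, control; M, MI-883), with the mean over all tested genes as a black dash. The 3 enzyme steps reach 0.53 to 0.77 in treated replicate 5 and lie below 0 in control replicates 2 and 3.

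Single enzymes differed in how far treated replicate 5 stood from the other treated livers. Its level was 2.27 times the median of the other 4 for *Idi1*, 2.12 times for *Sqle*, 1.91 times for *Nsdhl* and 1.77 times for *Hmgcs1*. The ratio was 1.14 for *Sc5d*, 1.04 for *Ggps1*, 0.972 for *Ebp* and 0.903 for *Insig2*. With that liver left out, *Aacs*, *Pmvk* and *Stard4* had log2 fold changes of -0.07, -0.02 and -0.08, on the other side of 0.

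**Figure D5:**
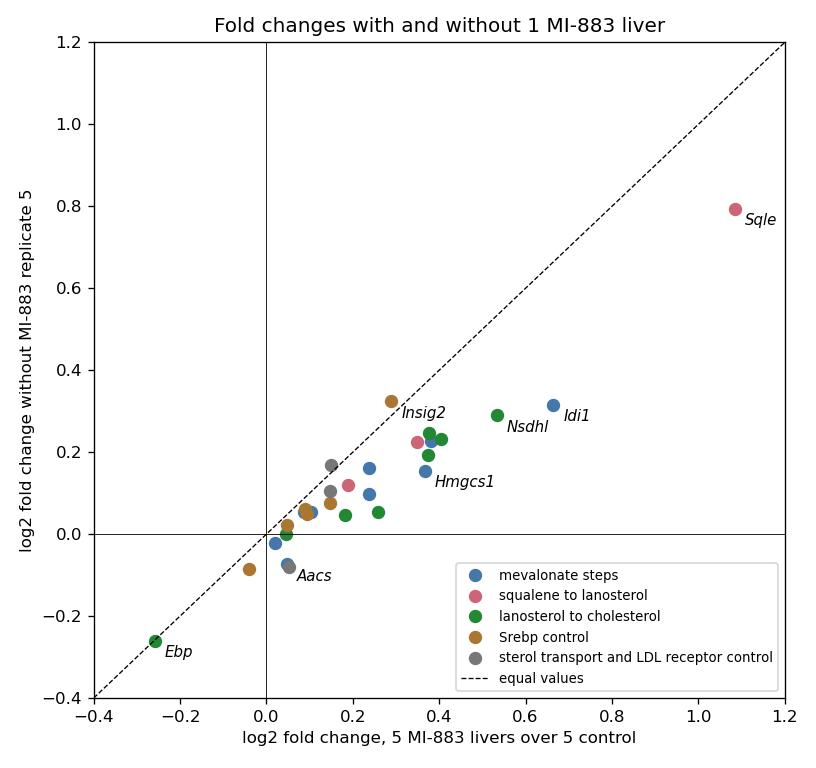
Log2 fold change of each gene with all livers (horizontal axis) and without treated replicate 5 (vertical axis), with a dashed line of equal values. Most points lie below the line, *Sqle* at 1.09 and 0.79, whereas *Insig2*, at 0.29 and 0.32, lies above it.

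The libraries held 23513665 to 36221514 counts, and that of treated replicate 5 held 27262010. *Cyp2b10*, the classical CAR target, was at 24.4 to 44.3 CPM in control livers and at 634 to 1375 CPM in treated livers, with 989 CPM in treated replicate 5. Marker sums are given here per library total without TMM scaling. Hepatocyte markers were abundant in all livers. Their sum over 5 markers was 60238 to 68654 CPM in control and 58122 to 62674 CPM in treated livers. In treated replicate 5 it was 58548 CPM. Over 7 Kupffer cell markers the sum was 185 to 299 CPM in control and 157 to 354 CPM in treated livers, and treated replicate 5 had the lowest. With TMM scaling, *Clec4f*, *Vsig4* and *Cd5l* were lowest of all livers there (51.8, 10.6 and 59.3 CPM). *Adgre1*, *Timd4*, *Marco* and *Cd68* lay within the control range there, and *Timd4* and *Marco* were highest of the treated livers (4.40 and 4.47 CPM). Sums over 6 endothelial markers were 114 to 145 and 130.2 to 176 CPM, over 6 stellate cell markers 217 to 374 and 255 to 459 CPM, over 5 bile duct markers 23.7 to 122 and 33.5 to 209 CPM, and over 5 lymphocyte markers 8.20 to 16.1 and 10.1 to 17.1 CPM. In treated replicate 5 these 4 sums were 168, 347, 54.2 and 10.8 CPM. The adipocyte markers summed to at most 0.375 CPM, with *Lep* not listed, and the exocrine pancreas markers to at most 25.2 CPM, with *Prss2* and *Pnlip* not listed. The part of other cell types in the differences of the sterol genes was not tested. None of the tested marker genes of these lists was called in edgeR. At an unadjusted P under 0.05 in edgeR, 3 of 6 endothelial and 3 of 6 stellate cell markers were higher. So were 1 of 7 Kupffer cell and 1 of 5 bile duct markers, while 1 of 5 hepatocyte markers was lower. Of all tested genes, 8.09% were higher and 7.49% lower at this limit.

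Genes around the pathway were counted by further lists. Of 8 oxysterol receptors and their targets, 0 were called higher and 1 lower, *Srebf1*, which encodes Srebp1 and is driven by the oxysterol receptor LXR. It was measured at 440.5, 385, 611, 488 and 505 CPM in control and at 276, 308, 384, 355 and 299 CPM in treated livers (log2 fold change -0.58, adjusted P = 0.047 from edgeR). Each treated liver lay below all controls, replicate 3 at 384 CPM only slightly below control replicate 2. The call was lost in 7 of the 10 fits that omitted a single liver (adjusted P of 0.0353 to 0.130 from edgeR) and with scaling by total counts (adjusted P = 0.0662). Without single livers its log2 values were -0.65 to -0.49. DESeq2 called it too (adjusted P = 0.000691). At an unadjusted P under 0.05, 0 of the 8 genes were higher and 3 lower in edgeR, *Srebf1* among them. The counts were the same in DESeq2. Of all tested genes, 7.49% were lower at this limit in edgeR and 7.6% in DESeq2. The median log2 fold change of the 8 genes was -0.065.

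Of 6 electron and heme partners of the sterol enzymes, 0 were called in edgeR, while at an unadjusted P under 0.05 there were 2 higher and 1 lower. DESeq2 called 2 higher and 1 lower. *Pgrmc1* and *Pgrmc2* are related membrane proteins that bind cytochromes P450. All 3 genes are named after their values were seen. *Pgrmc1* had a log2 fold change of 0.36 and *Pgrmc2* of -0.27. Their adjusted P values were 0.0864 and 0.0506 from edgeR, and 0.0013 and 0.00031 from DESeq2. In both the treated and control livers did not overlap, as in 3.98% of all tested genes. The median log2 fold change of the 6 genes was 0.22.

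In the other lists 0 genes were called in edgeR. The shares of all tested genes were again 8.09% higher and 7.49% lower at an unadjusted P under 0.05 in edgeR. For DESeq2 calls they were 2.2% higher and 1.3% lower. Of 8 genes of sterol-regulated degradation in the endoplasmic reticulum, 2 were higher and 0 lower at an unadjusted P under 0.05, and DESeq2 called 0 (median log2 fold change -0.039). Of 11 genes of isoprenoid branches after farnesyl diphosphate, 0 were higher and 1 lower at an unadjusted P under 0.05, and DESeq2 called 0 (median 0.013). Of 12 genes of cholesterol esters and sterol transfer, 0 were higher and 1 lower at an unadjusted P under 0.05. DESeq2 called 1 of these 12 lower, *Scp2*, a sterol carrier protein that is named after its values were seen (median of the list 0.0017). The scores of these 3 lists in treated replicate 5 were 0.056, -0.0023 and -0.049, against 0.58 for the enzymes.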

How the data were processed

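Counts were deposited per Entrez gene without normalization. According to the methods and the submitters' notes, the authors trimmed reads with fastp 0.23.0, aligned them to mm10 with STAR and made counts with featureCounts, whose annotation and strand setting are not given in the sources used here. The libraries are directional, and each is from another animal. Of 16647 genes, 16644 were matched to RefSeq symbols of GRCm38, and exon lengths were taken from GENCODE.

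The 13219 genes whose counts added up to 60 or more across all samples were tested with edgeR 4.0.16 in R 4.3.3 (TMM, quasi-likelihood test, condition as sole term, Benjamini-Hochberg adjustment over all tested genes, threshold 0.05). The study's count minimum can also be read as 60 in every liver, which was an alternative. DESeq2 1.42.0 was the other test. Standard errors are the log2 fold change divided by the root of F. Scores used a pseudocount of 1 CPM. The pipeline was tested on simulated data.

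The members and lists were chosen with earlier results of these data known. Values by liver are given for members with an unadjusted P under 0.05, the Srebp control genes and the enzyme of highest RPKM in each step, and genes outside the members when called in edgeR. Some genes of the pathway are not reported here. Other alternatives were 2 scalings, other filters, a replicate block and leaving out each liver.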

Additional observations from a re-analysis of the deposited data

Results flagged for a closer look

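Single values were compared within each group of 5 livers. The distance of the extreme value from its neighbour, as a share of the whole range, was above Dixon's critical value (0.71 for 5 livers) in 8 of 72 groups, where about 3.6 are found by chance and members that vary together are not independent. In treated livers, 7 of these were the highest value, in replicate 5. They were *Idi1* at 56.7 CPM (nearest 25.4), *Nsdhl* at 99.5 CPM (nearest 58.1), *Msmo1* at 247 CPM (nearest 154), *Hsd17b7* at 117 CPM (nearest 77.7), *Dhcr7* at 121 CPM (nearest 84.2), *Srebf2* at 49.4 CPM (nearest 40.9) and the score of the genes from lanosterol to cholesterol at 0.57 (nearest 0.080). The remaining value was *Ggps1*, lowest in treated replicate 4 at 4.74 CPM (nearest 6.87). No control liver lay apart in these groups.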

How the results depend on the processing

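DESeq2 gave 463 called genes in place of 136, and 1 member higher in place of 0 (*Sqle*). The fit with the replicate block gave 89 called genes and 1 member higher, again *Sqle* (adjusted P = 0.0080 from edgeR with the block). The labels do not say that same-numbered livers are paired. Deviations of same-numbered livers correlated at 0.38, -0.098, -0.091, 0.073 and 0.093, and 0 of the 5 control livers correlated best with their own number. Whether same-numbered livers shared a batch was not tested. With each liver left out in turn, 62 to 203 genes and 0 to 1 members were called higher, and 0 to 3 members had groups that did not overlap. The fewest genes were called without treated replicate 5 and the most without control replicate 1. The 3 members without overlap appeared without treated replicate 2 (*Idi1*, *Sqle* and *Dhcr7*), where 2.76% of all tested genes did not overlap upward. Sign changes occurred only when a liver was left out and in 5 members, with log2 fold changes from -0.074 to 0.15 for *Aacs*, -0.072 to 0.12 for *Pmvk*, -0.11 to 0.027 for *Scap*, -0.0045 to 0.094 for *Insig1* and -0.081 to 0.14 for *Stard4*. Of 493 further fits of single members, 479 kept the sign and the call. The 2 other scalings and 3 other filters, run for calls, changed no call of a member in edgeR. The score over all 29 genes was run with the 2 scalings and a pseudocount of 0.1, and moved by less than the S.D. of the liver's own group. Its largest move was with total counts, from -0.00039 to 0.13 in treated replicate 3 (S.D. of treated livers 0.21). Outside the members, *Srebf1* lost its call in 7 fits without a liver (treated replicates 1, 2, 4 and 5 and control replicates 3, 4 and 5) and with total counts. Scaling by total counts moved the median of all genes to 0.049. The lowest count of a member in any liver was 109 (*Ggps1*), and counting error was not separated from the spread between livers.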
